A study of Drosophila melanogaster with 4 samples.

Results

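The Hox genes of Drosophila melanogaster lie in 2 complexes on chromosome arm 3R, the Antennapedia complex (lab, pb, Dfd, Scr and Antp) and the bithorax complex (Ubx, abd-A and Abd-B). LSD1 binding across both was read from lists of enriched regions. A region belonged to a complex when it shared at least 1 bp with a fixed window, 3R:2480000-2830000 for the Antennapedia complex and 3R:12480000-12800000 for the bithorax complex. All positions are in release 5 of the fly genome. By this rule 36 of the 9018 regions of the combined list lay in the complexes, together with 13 of 3951 in replicate 1 and 12 of 2607 in replicate 2. Their choice used positions only and no measured value.

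The libraries were 2 chromatin immunoprecipitation (ChIP) samples with the antibody Q3430 against LSD1, and 2 input samples of genomic DNA, one for each ChIP. All came from embryos of the wild-type strain Oregon-R at 14 to 16 h, from population cages, and the chromatin had been crosslinked with formaldehyde. Whole embryos were used, so binding in a few cells and weak binding in many cannot be told apart. Whether the replicates are separate collections of embryos is not in the labels, so their spread may be technical. The read depth is unknown, since each list gives a position and a score per region. The score behaves as a log2 value, and enrichment is given as its fold, on the scale of its own list.

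Hox genes encode homeodomain transcription factors that give each body segment its identity. Genes of the Antennapedia complex act in the head and anterior thorax, and those of the bithorax complex in the posterior thorax and abdomen. In the late embryo each gene is active in some segments and is kept silent in the others by Polycomb group proteins, while trithorax group proteins maintain its active state. LSD1, encoded by Su(var)3-3 in flies, is a demethylase that removes methyl groups from lysine in the tail of histone H3, on residues linked to active promoters and enhancers.

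In both complexes LSD1 regions covered a smaller share of the bases than in the rest of 3R. The Antennapedia complex held 20 regions of the combined list over 37.5 kb, or 10.7% of its window, and the bithorax complex held 16 regions over 26.5 kb, or 8.28%. In the rest of 3R, 1975 regions covered 15.9% of the bases. Replicate 1 covered 4.56% of the Antennapedia and 3.57% of the bithorax window, against 8.05% of the rest of 3R. Replicate 2 covered 3.10% and 3.69% of the same windows, against 4.23%. The covered share was thus lower in each complex than in the rest of the arm in all 3 lists. The margin was smallest for the bithorax complex in replicate 2.

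Windows of the same length along the rest of 3R showed how far such values vary. For the Antennapedia complex there were 75 such windows, with a median of 24 regions and a range from 7 to 45 in the combined list. Of these windows 54 held more than its 20 regions and 21 held fewer. The median window was covered to 14.2%, and again 54 windows lay above the complex. For the bithorax complex there were 83 windows, with a median of 22 regions and a range from 6 to 48. Its 16 regions were exceeded by 64 windows and equalled by 1. Its covered share was exceeded by 68 windows, and the median of all 83 windows was 14.2%. Both complexes therefore sat in the lower part of the windows, and neither lay outside their range. There is 1 copy of each complex, so no test of this difference was made.

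The replicate lists placed the complexes differently among the windows. In replicate 1 the Antennapedia complex held 6 regions, and 62 of 75 windows held more. The bithorax complex held 7 regions there, and 53 of 83 windows held more. In replicate 2 each complex held 6 regions, with 40 of 75 and 42 of 83 windows holding more, so both were close to the median window, which had 7 regions.

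**Figure D1:**
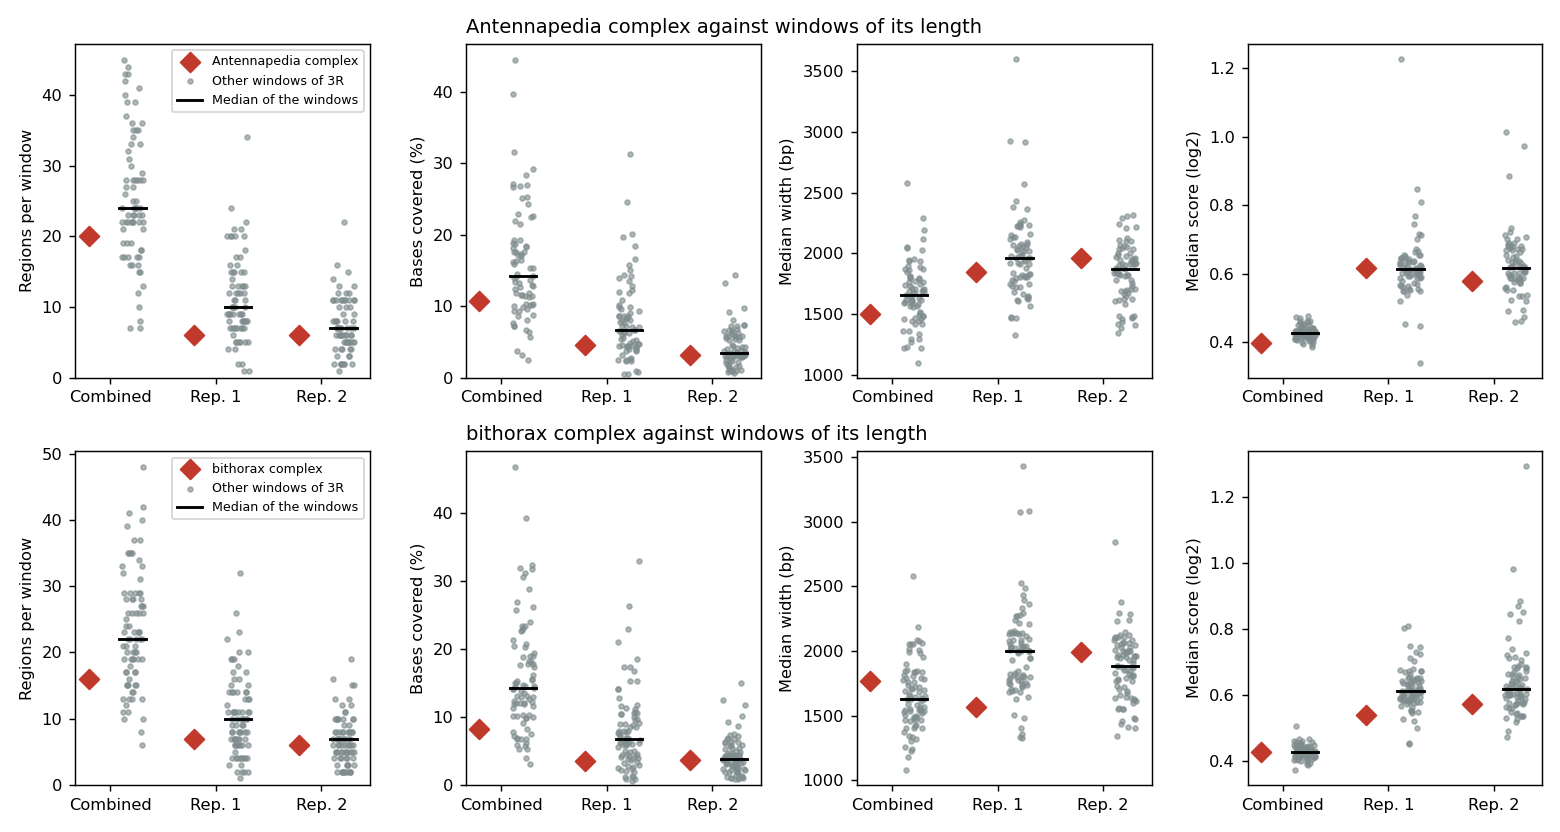
Number of regions, covered share (%), median width (bp) and median score (log2) of the Antennapedia complex (upper row) and the bithorax complex (lower row), as red diamonds, beside the windows of the same length along the rest of 3R (grey points, 75 and 83 windows) with their median (black line), in each of the 3 lists. Number and covered share lie below the median line for both complexes in every list, with the smallest distance in replicate 2.

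The immediate surroundings were compared in flanks of the same length. The Antennapedia complex, with 20 regions and 10.7% covered in the combined list, had 25 regions and 16.4% on the side of lower coordinates and 19 regions and 11.9% on the other side. The bithorax complex, with 16 regions and 8.28% covered, had 36 regions and 20.3% on the lower side and 15 regions and 9.85% on the higher side. In the replicates the higher flank of the Antennapedia complex was covered to 7.83% and 3.96%, close to the rest of 3R at 8.05% and 4.23%. That of the bithorax complex was covered to 4.47% and 2.70%, below the rest of 3R in both.

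The complexes held no region above 2-fold. In the combined list fold enrichment ran between 1.20 and 1.51 in the Antennapedia complex, with a median of 1.32, and between 1.25 and 1.46 in the bithorax complex, with a median of 1.34. The rest of 3R had the same median of 1.34 but reached 7.85. Not one of the 36 regions exceeded 2-fold, as did 2.48% of the regions in the rest of 3R. The replicate lists also had none above 2-fold in the complexes, where the rest of 3R had 6.21% in replicate 1 and 12.5% in replicate 2. With 36 regions in the combined list, and 13 and 12 in the replicates, these counts of 0 are too small a sample to read a difference from.

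Median fold was below that of most windows in 5 of 6 comparisons, and median width showed no stable order. The median score of the Antennapedia complex was below that of 72 of 75 windows in the combined list, at 1.32-fold against a window median of 1.35-fold. In replicate 1 it was 1.53-fold both in the complex and in the median window, and 44 of 75 windows lay below it. The bithorax complex stood at 1.45-fold in replicate 1, under 78 of 83 windows, but at 1.34-fold in the combined list, under 46 of 83. In replicate 2 the Antennapedia complex stood at 1.49-fold, under 58 of 75 windows, and the bithorax complex also at 1.49-fold, under 67 of 83. Median width was 1502 bp in the Antennapedia and 1766 bp in the bithorax complex, against 1649 bp in the rest of 3R. Of the 36 regions 1 was at least 5 kb wide, a width that 5.72% of regions reached in the rest of 3R. A set of 36 regions is too small to read a difference from here.

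In the combined list and in replicate 1, the strongest and widest region of both complexes lay between Dfd and Scr. Dfd specifies the maxillary and mandibular segments of the head, and Scr the labial segment and the first segment of the thorax. The region 3R:2635464-2643118 spanned 7655 bp in the combined list at 1.51-fold, higher than 91.8% of the regions of 3R and wider than 97.9% of them. Replicate 1 called it as 1 region of 7322 bp at 1.64-fold, which covered 95.6% of its length. Replicate 2 called 2 shorter regions there, of 2016 and 1406 bp at 1.56-fold and 1.55-fold, which covered 44.7%. In that list the strongest region was the one that holds the downstream end of Scr, and the widest was 3R:12723944-12726172 of the bithorax complex, at 2229 bp. Both replicates thus marked the outer parts of 3R:2635464-2643118, and its middle was called in replicate 1 alone. The region overlapped 2 annotated long noncoding RNA genes, lncRNA:CR42651 and lncRNA:CR45915. The microRNA gene mir-10, whose vertebrate counterparts also lie within Hox clusters, was outside it by 0.16 kb.

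The next regions in strength followed directly, up to the end of Scr. At 3R:2644974-2647208 the combined list gave 1.48-fold, replicate 1 gave 1.58-fold and replicate 2 gave 1.40-fold. At 3R:2647286-2649410 the combined value was 1.46-fold, with 1.36-fold in replicate 1 beside 1.62-fold in replicate 2. Both were held by both replicates, but their order of strength was opposite: the first was stronger in replicate 1 and the second in replicate 2. These regions contained 4 annotated lysine tRNA genes and 2 genes for 7SL RNA, the RNA of the signal recognition particle. Genes of these kinds exist in near-identical copies. The sources used here do not give how reads that match several copies were placed, and its part in these 2 regions was not tested. The second region also held the downstream end of Scr.

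**Figure D2:**
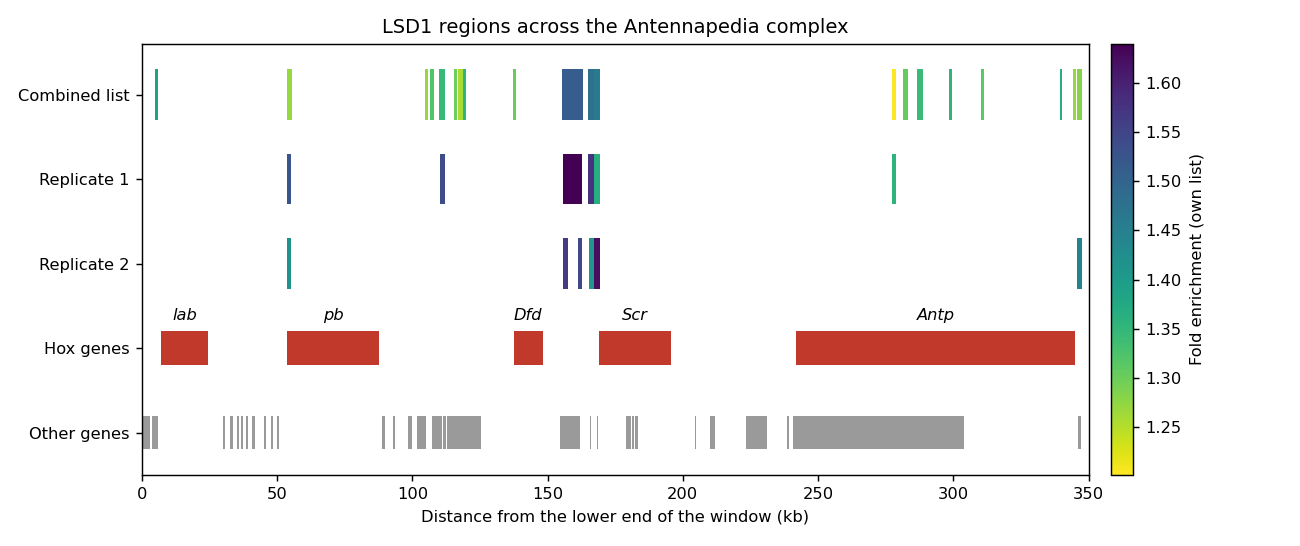
LSD1 regions across the Antennapedia complex in the 3 lists, with the annotated spans of the 5 Hox genes (red) and of other genes (grey), by distance from the lower end of the window (kb); colour gives the fold enrichment within each list. The regions between Dfd and Scr are the strongest in the combined list, at up to 1.51-fold, and no list has a region in the 108 kb that follow them.

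Scr itself and the segmentation gene ftz lay in the longest empty stretch of the combined list and of replicate 2 in either complex. No region of the combined list was found over 107.96 kb from 3R:2649411 to 2757371, which held nearly all of Scr, the whole of ftz and the lower part of Antp. Among 2010 gaps between neighbouring regions of 3R, 10 were longer, or 0.498%. Replicate 1 was empty over 108.1 kb there, with 56 of 881 gaps longer, and replicate 2 over 176.2 kb, with 22 of 586 longer. Replicate 1 had 3 longer stretches that reach into the complexes, of 229.0 kb over lab and far beyond the window, of 123.8 kb over most of Antp and of 115.4 kb over abd-A. Both ends of ftz, a pair-rule gene of segmentation, were at least 40.6 kb away from any region. This stretch was singled out after the values were seen.

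The genes lab and pb act in the head, and they differed in the regions called over them. Over the 17.2 kb of lab there were no regions in any list, and the nearest region in the combined list lay 1.05 kb beyond its downstream end, over the genes twr and agt. The stretch from there to pb was empty over 47.6 kb and held lab and the cuticle protein genes Edg84A and Ccp84Aa to Ccp84Ag. Gene pb had 1 region near its downstream end, 3R:2533746-2535590, where replicate 1 gave 1.53-fold and replicate 2 gave 1.42-fold, beside 1.27-fold in the combined list. Both replicates held this region, and it made pb the third most covered Hox gene in replicate 1 and the second in replicate 2. Its score in the combined list was higher than that of 11.0% of the regions on 3R. From it, 48.9 kb without a region of the combined list reached up to bcd, over the rest of pb, zen2 and zen.

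Dfd and Antp were marked at their upstream ends in the combined list and in neither replicate. The upstream end is the outer end of the annotated span on the side where transcription begins. Its side was taken from general knowledge of the complex, since the gene table gives no strand. Only the span of each gene was used, so any start inside a span was not placed. At Dfd the region 3R:2617120-2618440 stood at 1.30-fold. At Antp, which specifies the second segment of the thorax, it was 3R:2824292-2825480 at 1.27-fold. Directly beyond that end, the region 3R:2825582-2827540 stood at 1.28-fold in the combined list and 1.44-fold in replicate 2, with none in replicate 1. Within the 103.0 kb of Antp the combined list had 7 regions and covered 9.38%, replicate 1 had 1 region and covered 1.39%, and replicate 2 had none. The replicate 1 region was called at 1.36-fold around 3R:2757372-2758990, which at 1.20-fold was the weakest of the combined list in both complexes.

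The Antennapedia complex also holds bcd, zen, zen2, ftz and Ama, which are not counted as Hox genes here. Of these 5 genes, an end was marked in 2 by the combined list, in 1 by replicate 1 and in 0 by replicate 2. Among all annotated genes of the span these shares were 28.0%, 14.0% and 12.1%, and 5 genes are too few to read a difference from. The egg polarity gene bcd was marked at 1.27-fold in the combined list alone. Ama, which encodes a cell adhesion protein, was marked at 1.35-fold in the combined list and 1.54-fold in replicate 1, and not in replicate 2. The remaining regions of the complex were 3 over lncRNA:CR42721, at between 1.26-fold and 1.35-fold, and 1 over lncRNA:CR45593 at 1.32-fold, none held by a replicate.

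In the bithorax complex the strongest region of the combined list lay inside Ubx, the gene of the third segment of the thorax. At 3R:12527656-12529736 the combined list gave 1.46-fold, replicate 1 gave 1.55-fold and replicate 2 gave 1.41-fold, and the replicate regions covered 98.8% and 95.6% of its 2081 bp. In replicate 2 it ranked 5 of the 6 regions of the complex. It lay 30.4 kb from the upstream end of the 77.8 kb gene. Near the downstream end, 3R:12489444-12491384 reached 1.35-fold in the combined list and 1.56-fold in replicate 1, where it was the highest of this complex, but replicate 2 had no region there. At the upstream end of Ubx the combined list had 2 regions next to each other, 3R:12558126-12559418 at 1.39-fold and 3R:12559550-12560578 at 1.36-fold, which holds the end itself. Neither replicate list had a region at these 2. A further region of the combined list, 3R:12545318-12547256 at 1.33-fold, held an end of the antisense RNA gene asRNA:PS4 and was in neither replicate.

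Between Ubx and abd-A lies regulatory DNA of these genes, with the noncoding RNA gene lncRNA:bxd. Of 3 combined-list regions over lncRNA:bxd, both replicates held 3R:12588760-12590738, which stood at 1.35-fold. Replicate 1 gave it 1.45-fold and replicate 2 gave 1.46-fold. The other 2 regions, at 1.34-fold and 1.28-fold, were held by neither. The second strongest region of the complex in the combined list, 3R:12607236-12609300 at 1.44-fold, held an end of lncRNA:CR44945. It had 1.35-fold in replicate 1, where it stopped short of that gene, and 1.52-fold in replicate 2, where it was the strongest of the complex. A gap of 38.5 kb followed it, the longest of the combined list in this complex, with 137 of 2010 gaps on 3R longer.

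The upstream end of abd-A, a gene of the anterior abdomen, was the only upstream end of a Hox gene marked in a replicate list. The region 3R:12655176-12656612 stood at 1.26-fold in the combined list and 1.33-fold in replicate 2, which covered it entirely, and replicate 1 had none. Inside the gene the combined list had 1 more region, at 1.36-fold, in neither replicate. Beyond that end stretch lncRNA:iab8 and MSAmiP, over the regulatory DNA of the abdominal segments. Of 3 regions over lncRNA:iab8, both replicates held 3R:12723938-12726148, which stood at 1.33-fold. Replicate 1 gave it 1.47-fold and replicate 2 gave 1.52-fold. The microRNA genes mir-iab-4 and mir-iab-8, which are annotated at the same place and act on Ubx and abd-A, were 2.38 kb away from the nearest combined-list region and held none.

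Abd-B, the gene of the posterior abdomen, carried 2 regions in the combined list. Close to its upstream end, and 1.21 kb inside the gene, 3R:12794632-12796744 stood at 1.34-fold. Both replicates held it, replicate 1 at 1.32-fold and replicate 2 at 1.52-fold. The replicates placed it differently in strength: it was higher than 1.81% of the 3R regions in replicate 1 and than 48.4% in replicate 2. Further into the gene, 3R:12759142-12760988 stood at 1.34-fold in the combined list and 1.41-fold in replicate 1, and was absent from replicate 2.

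**Figure D3:**
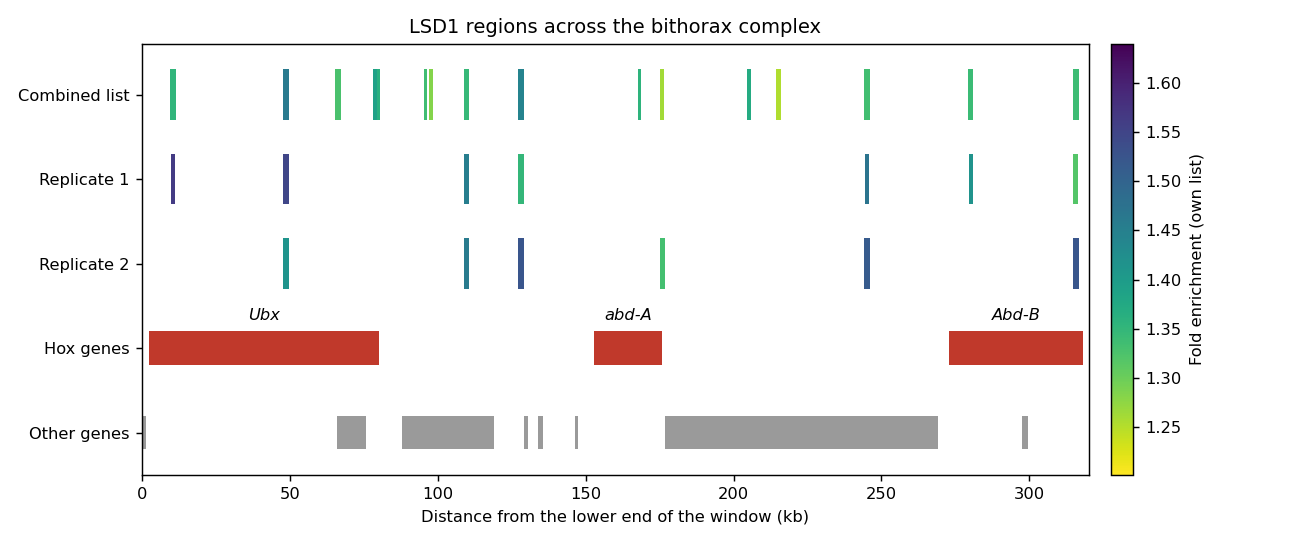
LSD1 regions across the bithorax complex in the 3 lists, with the annotated spans of the 3 Hox genes (red) and of other genes (grey), by distance from the lower end of the window (kb); colour gives the fold enrichment within each list. The 5 regions held by both replicates lie inside Ubx, over lncRNA:bxd, at an end of lncRNA:CR44945, over lncRNA:iab8 and near the upstream end of Abd-B.

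Support by the replicates was concentrated in the wider regions. Both replicates held 4 of 20 combined-list regions of the Antennapedia complex (20.0%) and 5 of 16 of the bithorax complex (31.2%), against 18.1% of those in the rest of 3R. Neither replicate held 13 (65.0%) and 8 (50.0%), against 52.2%. Sets of 20 and 16 regions are too small to read a difference from the arm. The 4 and 5 regions held by both had median widths of 2180 and 2081 bp, against 3139 bp for such regions in the rest of 3R. Those held by neither had 1209 and 1300 bp in the complexes and 1271 bp in the rest of 3R. In the bithorax complex all 5 regions held by both were wider than any of the 8 held by neither, which reached 1939 bp. In the Antennapedia complex these widths overlapped. A wider region meets another more easily, so width and support are not independent. The narrowest region of each replicate list was 1301 bp, against 1001 bp in the combined list. Among combined-list regions of at least 1301 bp, a limit chosen after the values were seen, both replicates held 4 of 13 (30.8%) in the Antennapedia and 5 of 12 (41.7%) in the bithorax complex, against 26.3% of such regions in the rest of 3R.

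Seen from the replicate lists, agreement was more frequent. Replicate 2 held 9 of the 13 regions of replicate 1 in the complexes (69.2%), against 43.04% in the rest of 3R. Replicate 1 held 10 of the 12 regions of replicate 2 (83.3%), against 69.04%. Bases covered by both replicates made up 47.1% of those covered by either in the Antennapedia complex and 56.6% in the bithorax complex, against 30.4% in the rest of 3R. The difference was not tested, and it rests on 13 and 12 regions.

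**Figure D4:**
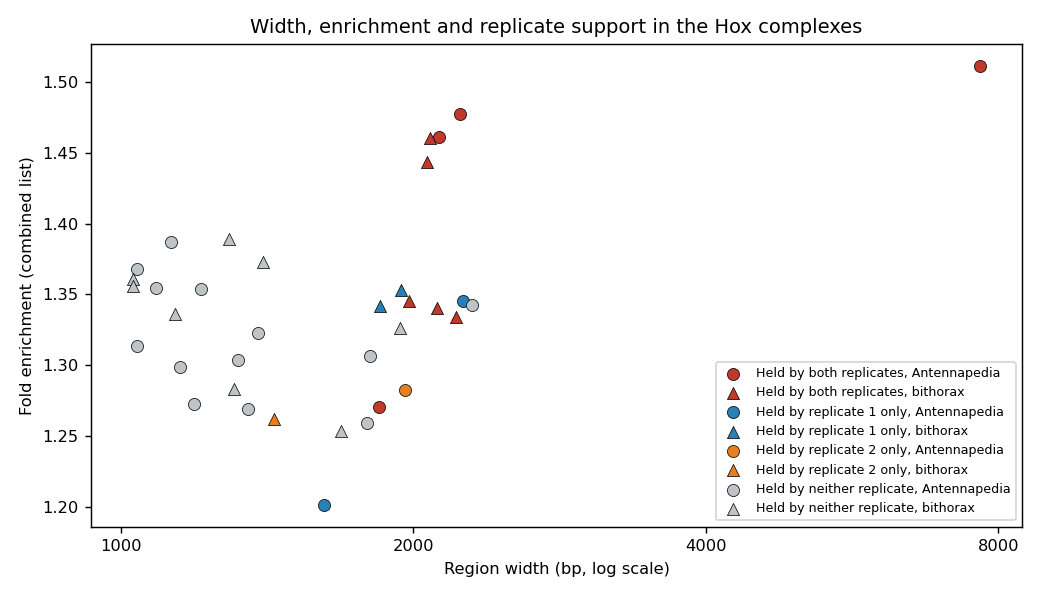
Width (bp, log scale) and fold enrichment of the 36 combined-list regions of the Antennapedia (circles) and bithorax (triangles) complexes, coloured by the replicates that hold them. The 5 regions of highest fold, from 1.44 to 1.51, are all held by both replicates, and the narrowest regions by neither.

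In each of the 8 Hox genes, LSD1 regions covered 10.1% of the annotated span or less. In the combined list the covered share of the annotated span was 0% at lab, 5.38% at pb, 8.34% at Dfd, 2.12% at Scr, 9.38% at Antp, 10.1% at Ubx, 7.12% at abd-A and 8.80% at Abd-B. The order was thus led by Ubx, with Antp and Abd-B next, and the median over the 8 genes was 7.73%. Over all 1592 annotated genes from the Antennapedia to the bithorax window, the median was 0% in every list. Those genes were shorter, with a median length of 1.77 kb against 30.6 kb for the Hox genes. In replicate 1 the share was 6.75% at Abd-B, 4.47% at Ubx, 4.01% at pb, 1.39% at Antp and 1.34% at Scr, and 0% at the other 3 genes. In replicate 2 it was 4.57% at Abd-B, 4.21% at pb, 3.12% at abd-A, 2.56% at Ubx and 2.11% at Scr, and 0% at the remaining ones. Antp, Dfd and abd-A were covered in 1 replicate or none, so the order among the genes was not stable between the lists.

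Long genes elsewhere give the scale. Between the complexes 151 annotated genes spanned at least 10 kb, as do all 8 Hox genes. Their median covered share was 14.3% in the combined list, with quartiles of 3.86% and 36.5%, so the 8 Hox genes, none above 10.1%, all lay below that median. In the replicates the medians over the Hox genes were 1.36% and 2.33%, and over these long genes 2.78% and 0.814%, so the order of these medians differed between replicates 1 and 2. By summed length the Hox genes were lower in all 3 lists, at 7.82%, 2.87% and 2.01%, against 24.8%, 14.5% and 6.17% for the long genes. The comparison with long genes was chosen after the values were seen.

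**Figure D5:**
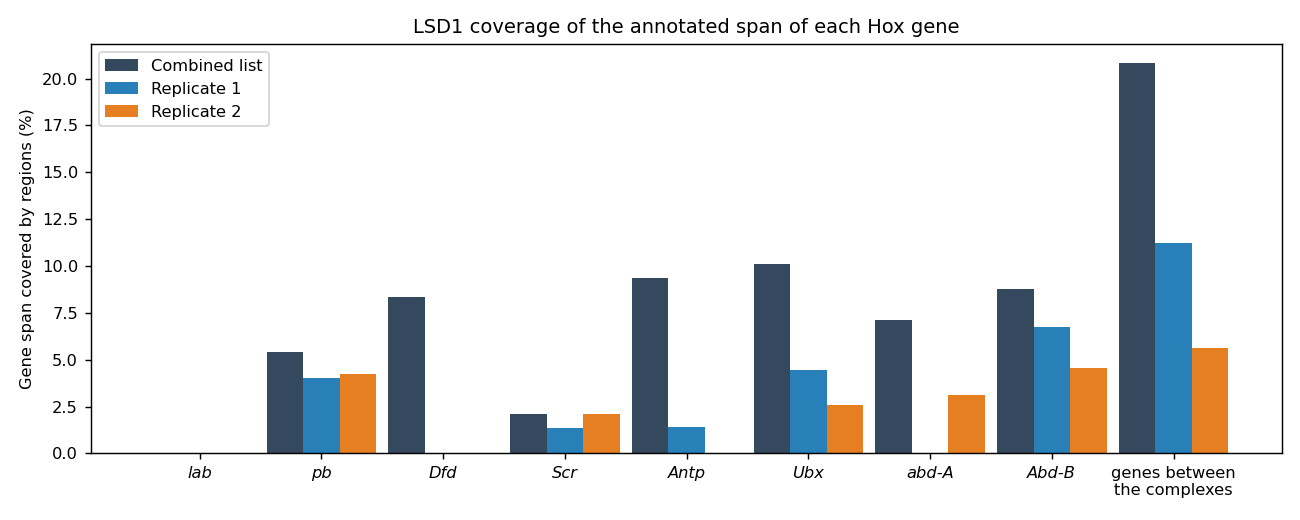
Share of the annotated span (%) covered by LSD1 regions for each Hox gene, and for all genes between the complexes by summed length, in the combined list, replicate 1 and replicate 2. In the combined list the 8 Hox genes range from 0% at lab to 10.1% at Ubx, and had 7.82% by summed length. The genes between the complexes had 20.8% by summed length there, with a median of 0% per gene.

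Marking of gene ends was set against other genes of 3R. An end of the gene, on either side, lay inside a combined-list region for 5 of the 8 Hox genes (Dfd, Scr, Antp, Ubx and abd-A), against 28.0% of all 1592 annotated genes of the span from the Antennapedia to the bithorax window. Among the 151 long genes the combined list marked an end of 51.0%, replicate 1 of 30.5% and replicate 2 of 27.8%. Of the Hox genes, replicate 1 marked 1 of 8, namely Scr, against 14.0% of all genes, and replicate 2 marked 2 of 8, Scr and abd-A, against 12.1%. The share of Hox genes was thus above that of long genes in the combined list and below it in both replicates. A set of 8 genes is too small to read a difference from in either direction. For the other 58 annotated genes lying whole in the windows the share was 29.3% in the combined list. In both replicates it was 17.2%, which includes the tRNA and 7SL RNA genes beside Scr.

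All 36 combined-list regions of the complexes lay in or at an annotated gene. In the Antennapedia complex 10 of 20 combined-list regions held a gene end and the other 10 lay inside a gene. In the bithorax complex 4 held an end and 12 (75.0%) lay inside a gene. Between the complexes 36.6% held an end, 54.2% lay inside a gene and 9.19% touched no gene. Annotated spans filled 71.5% of the Antennapedia and 85.7% of the bithorax window, against 70.9% of the stretch between them, so a position inside a gene is frequent in any case. The windows differ in gene content: there were 14.0 annotated genes per 100 kb in the Antennapedia and 5.31 in the bithorax complex, against 15.8 between them.

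A list of 12 other developmental regulators on the same stretch of 3R held hb, hth, pros, svp, ems, E5, srp, pnr, ss, grn, trx and Scm. Their median covered share in the combined list was 7.94%, against 7.73% for the Hox genes, and all but hth and trx stood at 10.8% or less. An end was marked in 6 of 12 in the combined list (50.0%) and in 4 of 12 in each replicate (33.3%). These shares are above those of all genes, 28.0%, 14.0% and 12.1%, but near those of genes of at least 10 kb, 51.0%, 30.5% and 27.8%. The gene hth, whose homeodomain protein is a DNA-binding partner of Hox proteins, was covered to 53.0% by 29 regions over 132.0 kb in the combined list. In the replicates 30.7% and 8.16% of hth was covered, by 17 and 6 regions. The gene trx, a founding member of the trithorax group that maintains Hox expression, was covered to 28.8% by the combined list, to 25.3% by replicate 1 and to 14.2% by replicate 2. Its highest enrichment was 1.41-fold in the combined list, and the replicates reached 1.48-fold and 1.52-fold. Scm, of the Polycomb group, held no region in any list, nor did the segmentation gene hb or the head gene ems. Among all annotated genes of the span, those meeting any region made up 35.0%, 18.0% and 15.7%, with the lists ordered as above. Holding none was thus the usual case. Scm, hb and ems were also short, at 4.25, 6.84 and 2.77 kb, beside 23.5 kb for trx. The highest enrichment among the 12 was at ss, a regulator of antennal and distal leg identity, where the single region of the combined list had 4.61-fold, that of replicate 1 had 4.35-fold and that of replicate 2 had 5.12-fold. The strongest region of the Hox complexes in the combined list, at 1.51-fold, lay well under that of ss. It was also under the highest of hth, at 1.58-fold, and of E5, at 1.52-fold. The other regulators with a region in that list all stayed below 1.51-fold, so ss stood apart from the rest of the 12 as well.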

How the data were processed

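Enriched regions of 2 LSD1 ChIP samples were analysed, grouped and numbered by their titles. The reads were handled with Bowtie 0.12.7, per the submitters' processing notes, and per the file headers the genome was FlyBase release 5. Not given in the sources used here are the region caller, its threshold and how the combined list arose. Per the file headers and columns, the authors deposited 1 score per enriched region, which has no named unit and was read as a log2 value. On that reading 100% of 300 scores per list, taken as powers of 2, were whole-number ratios of each other to a relative tolerance of 1e-12, against at most 0.667% with natural or base 10 logarithms. Depth per sample is unknown, so no interval was built.

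Covered shares are percent of bases inside a region. Windows were tiled from position 1 of 3R, without those touching a complex. Genes came from the RefSeq table of release 6, placed by subtracting a constant of 4174278 bp that was given for this stretch of 3R and was not checked on a genome. All 8 Hox genes matched by symbol and fell inside their windows. The table has no strand, so gene ends were used in place of starts. Planned motif searches in promoters were not run, as no sequence was used. No tests were made: the lists hold no values to compare between sample groups. Window counts and coverage were tested on simulated data. Named were all 8 Hox genes, the regions with the 5 highest scores or the widest 3 in each complex, and those at Hox gene ends; further regions and genes were named after their values were seen. Members and gene lists were chosen with earlier results of these data known. Python 3.11.15, numpy 2.4.6, pandas 2.3.3 and matplotlib 3.10.9 were used.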

Additional observations from a re-analysis of the deposited data

How the results depend on the processing

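Of 71 alternatives to 11 results, 54 stayed near the reported value and 11 moved further. The other 6 crossed to the other side of the median window. Near meant within 1 SD of the replicate lists, the binomial interval of a share or 1.5 times a count. These limits are wide, as the SD comes from 2 lists and the intervals from 20 and 16 regions, so 54 does not measure stability. Leaving out 1 replicate also drops 1 of the 2 conditions for regions held by both, so that share cannot fall. With regions at or above the median score of 3R only, the number of regions in the Antennapedia complex was 0.615 of the median window in place of 0.833. In the bithorax complex the same setting turned the width ratio to 0.86 in place of 1.08, and the score difference was -0.025 (log2) in place of -0.0023. It left 2 Hox genes with an end inside a region, in place of 5, while the share over all genes was 15.1%, in place of 28.0%. Merging regions closer than 200 bp gave a width ratio of 0.987 in the Antennapedia complex, in place of 0.909. The smallest width of the replicate lists, 1301 bp, was an alternative chosen after seeing the data and turned the width ratio of the bithorax complex to 0.985. Windows between the complexes only turned its score difference to 0.0024. The cause was not tested.

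With 1 replicate list in place of the combined list, the number ratio lay between 0.6 and 0.857 in the Antennapedia and between 0.7 and 0.857 in the bithorax complex. The covered share of the bithorax complex lay between 0.535 of the median window in replicate 1 and 0.977 in replicate 2, against 0.584 in the combined list. Width ratios lay between 0.941 and 1.05 in the Antennapedia complex, crossing in replicate 2, and between 0.781 and 1.06 in the bithorax complex, crossing in replicate 1. Score differences lay between -0.039 and 0.0027 in the Antennapedia complex, crossing in replicate 1, against -0.03 in the combined list, and between -0.072 and -0.046 in the bithorax complex. Hox genes with an end inside a region numbered 1 in replicate 1 and 2 in replicate 2. Number and covered share stayed below the median window for both complexes under every alternative run.

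No paired analysis was possible because the results come from no test and the input samples have no list of their own here. The planned motif search in promoters was not run. Depth is unknown, so a place without a region is one with none past the authors' threshold, which does not show absence of LSD1.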
